A study of Rattus norvegicus with 13 samples.

Results

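Homeobox and T-box genes encode transcription factors that lay down position, organ primordia and tissue boundaries in the embryo, and many of them stay active in adult tissue. Rows of the deposited gene table were taken when their symbol named a HOX, TBX, MSX, DLX, sine oculis, IRX, MEIS, PBX, LHX, PRRX, BARX, PITX, ALX, SATB, TSHZ, ZFHX or CUX gene. This gave 45 of 14790 rows, with 44 distinct symbols, since *Cux1* is listed under 2 Ensembl identifiers. Each gene was then compared between mammary epithelial cells of Wistar-Furth rats at 6 weeks of age (n = 6 rats) and at 10 weeks (n = 7 rats). The study places the younger age inside and the older age outside the window of susceptibility (WOS) to mammary carcinogens. No treatment is named for either age, and all rats were of this strain, which is susceptible to mammary cancer. The cells were ductal fragments from glands minced and digested with collagenase. The labels name a nylon filter for collecting them, whereas the methods of the study name differential centrifugation and say that these fragments also hold stromal fibroblasts and immune cells.

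HOX proteins bind DNA through a homeodomain and specify position along the body axis, with the cofactors PBX and MEIS raising their specificity. T-box proteins share another DNA-binding domain. *Tbx3*, *Msx1* and *Msx2* are best known in the mammary gland for the placode and bud stages, and *Hoxb9* belongs to a HOX group that acts in the growth of the mouse gland. Other genes of the set, such as *Prrx1*, *Tbx15* and *Tbx18*, are known mostly from mesenchyme.

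The values are RSEM counts that the authors scaled for each library and rounded, called normalized counts below. Their totals ran from 13261906 to 15659533 at 6 weeks and from 13766735 to 15402814 at 10 weeks. In 7 of 13 rats some whole numbers from 1 to 30 never occurred, and in rats 78 and 80 the smallest value above 0 was 2, so a low value there stands for few reads. Within the ages, the first component of all genes held 28.3% of the variation and set apart rats 75 and 80 at 6 weeks and rats 78, 81 and 83 at 10 weeks. These 5 rats are called the minor set and the other 8 the major set, a split that no label gives. Epithelial genes were abundant at both ages, with *Krt8* between 6486 and 17432 and *Krt14* between 1707 and 4864 normalized counts over all rats. A gene is called differentially expressed (DE) below where limma on log2(normalized count + 1) gave a p under 0.05, adjusted by Benjamini-Hochberg across the 14790 genes. The 13 luminal markers summed to 33030 to 64110 at 6 weeks and 47620 to 72419 at 10 weeks, and the 9 basal markers to 32147 to 46053 and 41999 to 51111. Of these, *Kit*, *Epcam* and the basal *Cnn1* were DE and higher at 10 weeks. All 6 rats at 6 weeks had a higher sum of 11 fibroblast markers (136427 to 269845) than any rat at 10 weeks (25370 to 72367). Of these 11 genes, 7 were DE and higher at 6 weeks, while *Pdgfra*, *Dcn*, *Dpt* and *Fbln1* did not pass. The median of the mean level over the 11 genes was 1473 normalized counts, so the sum is mostly that of the more abundant genes. Of 25 proliferation genes, 22 were DE and higher at 6 weeks. Among markers of other cells, 6 of 7 mast cell and 3 of 7 adipocyte genes were DE and higher at 6 weeks. So were 1 of 9 endothelial and 1 of 6 lymphocyte genes, beside 8.71% of all genes. The remaining mast cell gene, DE and higher at 10 weeks, was *Kit*, which is also counted among the luminal markers. Mast cell sums, *Kit* included, overlapped, at 1858 to 2906 at 6 weeks and 1523 to 3780 at 10 weeks. The median of the mean level over the 7 genes was 22.9 normalized counts, so these sums do not describe the other 6 genes. Estimates were higher at 10 weeks for 3 of the 7 adipocyte, 2 of the 9 endothelial and 4 of the 6 lymphocyte genes. None of 11 macrophage, 7 nerve or 4 skeletal muscle genes was DE, and the muscle genes summed to 418 at most. At an unadjusted p under 0.05 these 3 lists had 1 gene each. In RNA from mixed cells, fewer cells of a type and less RNA per cell cannot be told apart.

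Few of the 45 homeobox and T-box genes taken here differed between the ages. Only *Tbx18*, higher at 6 weeks, and *Hoxb9*, higher at 10 weeks, were DE, so 2 of 45 genes (4.44%) passed where 16.1% of all genes did. By direction this is 1 gene of 45 beside 8.71% of all genes for higher at 6 weeks, and 1 of 45 beside 7.39% for higher at 10 weeks. The difference between these shares was not tested. The 45 genes also stood lower, with a median of the mean level of 53.6 normalized counts, beside 160.5 over all genes. The part of this level in the low share was not tested, so the share is not a measure of stability. At an unadjusted p under 0.05 there were 6 of the 45 genes (3 in each direction), beside 31.6% of all genes. The ages did not overlap at all in 1 gene, *Pbx3*, which held for 6.07% of all genes. The log2 fold change (6 weeks over 10 weeks, so above 0 means higher at 6 weeks) had a median of 0.084 over the 45 genes and 0.028 over all genes, and the median absolute value was 0.27 against 0.31. It was above 0 for 26 of the 45 genes and below 0 for 19.

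How far a change is bounded depended on the level of the gene. For 39 of 45 genes the 95% interval of the log2 fold change included 0. The interval lay wholly between -1 and 1, which leaves out a doubling or halving, for 28 genes (62.2%, beside 65.5% of all genes). This held for 20 of the 24 genes with a mean of at least 50 normalized counts and for 8 of the 21 genes below that mean. The intervals of 3 genes lay wholly between -0.5 and 0.5, those of *Tbx3*, *Tshz2* and the *Cux1* row ENSRNOG00000001424. The SD within the ages, on the log2 scale, had a median of 0.44 over the 45 genes and 0.37 over all genes. Apart from the minor set of rats tested alone, in which no gene of the whole table was DE, the share of DE genes was lower in the set than in the whole table in all 10 other settings tried and whichever of the 13 rats was dropped. The setting without a filter on low values repeated the main fit, since all 14790 genes met the minimum mean, and adds nothing to this. The plot of intervals shows 43 of the 45 genes.

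**Figure D1:**
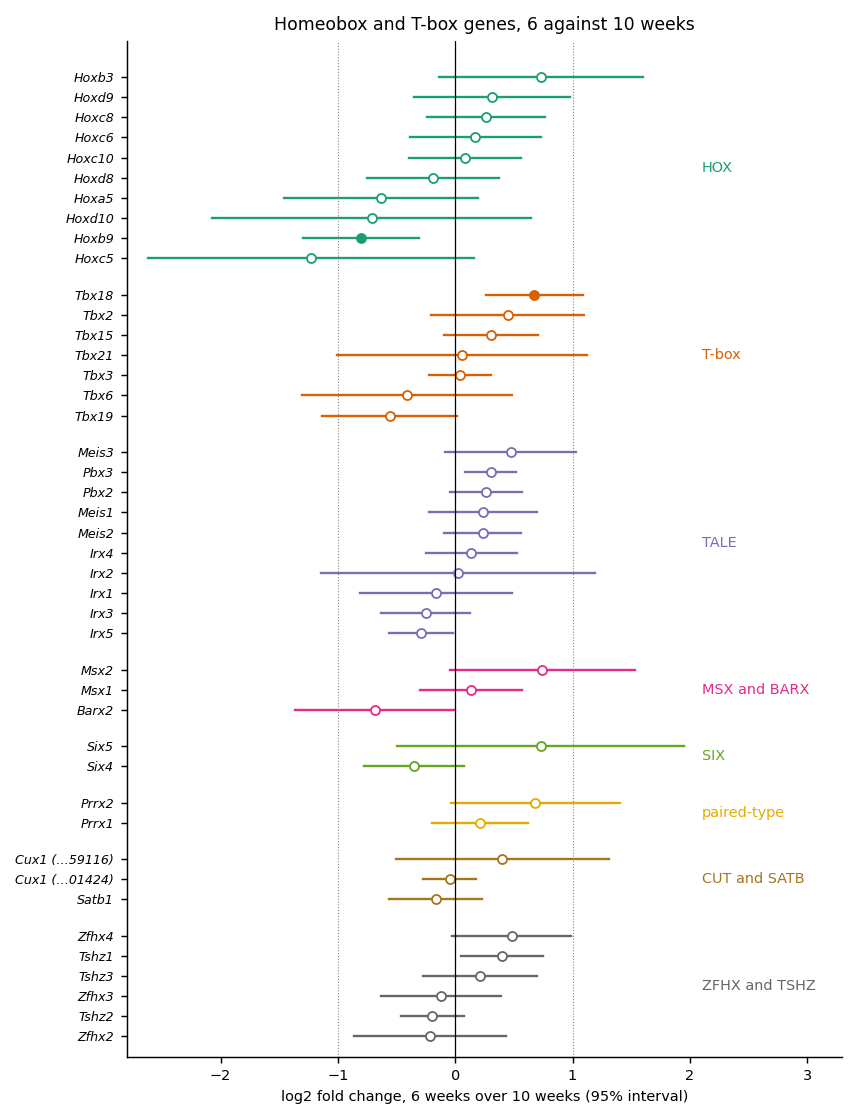
Log2 fold change (6 weeks over 10 weeks, x axis) of 43 homeobox and T-box genes, grouped by family, with points for the estimate and bars for the 95% interval from limma. Filled points mark adjusted p under 0.05. Filled points are those of *Hoxb9* and *Tbx18*, and 37 of the 43 bars cross 0. *Cux1* rows carry the last digits of their identifiers.

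*Tbx18* (ENSRNOG00000010685), a T-box repressor known from the mesenchyme of several organs and from vascular mural cells, had between 86 and 144 normalized counts at 6 weeks (median 103) and between 46 and 106 at 10 weeks (median 65). Every value at 6 weeks exceeded the median of the older rats, though just 2 of 6 exceeded all of them, so the ages overlapped. This gave a log2 fold change of 0.68 (s.e. 0.19) with an adjusted p of 0.0322 by limma, or 1.60-fold higher at 6 weeks. The call was near the threshold and held in 5 of 13 fits with one rat removed. Without rat 70, 71, 75, 86, 74, 78, 83 or 87 the adjusted p lay between 0.0530 and 0.0605, and the log2 fold change stayed between 0.59 and 0.78 over all 13 fits. Taken alone, the major set gave 0.49 (adjusted p = 0.177) and the minor set 0.98 (adjusted p = 0.283). The fibroblast marker sum moved with age in the same direction, and its part in this difference was not tested. The RefSeq promoter of *Tbx18* is given here because it is the DE gene of the set for which that table had an entry. The window covers 250 bases before and 50 after the start, at chr8:97559916-97560215 on the minus strand of GRCr8, written 5′ to 3′ with motif matches in capitals.
Tbx18: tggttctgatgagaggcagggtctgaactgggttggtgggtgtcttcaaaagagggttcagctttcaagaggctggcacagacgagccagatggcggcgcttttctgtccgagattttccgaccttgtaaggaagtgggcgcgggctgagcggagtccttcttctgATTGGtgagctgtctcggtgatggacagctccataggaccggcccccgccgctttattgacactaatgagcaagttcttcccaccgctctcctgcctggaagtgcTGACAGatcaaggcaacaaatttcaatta
Searched on both strands were the CCAAT box (CCAAT), a homeodomain core (TAATTA), a MEIS core (TGACAG), a T-box half-site (AGGTGT), a GC box (GGGCGG) and a TATA box (TATAAA). These letters occurred in 37.5%, 5.36%, 19.0%, 13.6%, 33.1% and 14.2% of all 33469 promoter windows, in that order. The *Tbx18* window held 1 CCAAT box, on the opposite strand, and 1 MEIS core, and none of the other 4.

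The other 6 T-box genes did not pass the threshold. *Tbx3*, which starts mammary placodes in the embryo, had 293 to 454 normalized counts at 6 weeks (median 403.5) and 309 to 446 at 10 weeks (median 382). The ages thus spanned nearly one range, and the interval of its log2 fold change of 0.041 ran from -0.23 to 0.31. *Tbx2*, its close relative, had 9 to 25 normalized counts at 6 weeks and 4 to 15 at 10 weeks (log2 fold change 0.45, interval -0.20 to 1.10). For *Tbx15*, a mesenchymal regulator closely related to *Tbx18*, the ranges were 157 to 280 and 119 to 250, with the whole younger group over the older median of 155 (log2 fold change 0.30, adjusted p = 0.281). Its estimate differed by set, at 0.82 (s.e. 0.22) in the minor one and near 0 in the major one (-0.030, s.e. 0.19). *Tbx19*, best known from the pituitary, was at 17 to 52 and 26 to 68, with 5 of 6 rats at 6 weeks below the 10-week median (log2 fold change -0.56, adjusted p = 0.170). The least certain were *Tbx21*, the T-bet factor of lymphocytes, and *Tbx6*, a factor of paraxial mesoderm. *Tbx21* ran from 3 to 52 at 10 weeks and had a log2 fold change of 0.058 with an interval from -1.01 to 1.12. Among the major set alone *Tbx21* had 0.60 and was DE (adjusted p = 0.0333), against -0.98 (s.e. 1.16) in the minor set. *Tbx6* had a log2 fold change of -0.41 with an interval from -1.31 to 0.48.

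Of the 39 HOX symbols in RefSeq, 10 had a row here, of paralogue groups between that of *Hoxb3* and that of *Hoxc10* and *Hoxd10*. The other 29 were not analysed here. All 10 stood low, with means between 8.85 and 30.8 normalized counts, so their values carry few reads. They split evenly by direction, 5 above and 5 below 0, with a median log2 fold change of -0.053. *Hoxb9* (ENSRNOG00000007573) had 4 to 13 normalized counts at 6 weeks (median 10) and 13 to 20 at 10 weeks (median 16). Of the 6 rats at 6 weeks, 5 lay below every rat at 10 weeks, and rat 86 at 13 tied with the lowest of them. This gave a log2 fold change of -0.80 (s.e. 0.23) with an adjusted p of 0.0319 by limma, or 1.74-fold higher at 10 weeks. The 2 lowest values, 4 and 6, were those of rats 75 and 80 of the minor set. The major set alone gave -0.47 (adjusted p = 0.0506) and the minor set alone -1.47 (adjusted p = 0.224). *Hoxb9* was DE in 7 of 13 fits with one rat removed. Without rat 71, 80, 72, 74, 83 or 87 its adjusted p lay between 0.0532 and 0.0619, and the log2 fold change lay between -0.91 and -0.62 over all 13 fits. With limma-trend, which lets the variance depend on the level, the call was lost (adjusted p = 0.0961).

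The other HOX genes did not pass, and the estimates within the HOXB, HOXC and HOXD clusters had both signs. In the HOXB cluster, *Hoxb3* had 5 to 19 normalized counts at 6 weeks and 2 to 12 at 10 weeks (log2 fold change 0.73, adjusted p = 0.231), the direction opposite to *Hoxb9*. In the HOXC cluster, *Hoxc5* had 0 to 16 (median 11) and 5 to 39 (median 23) normalized counts, and the younger values all lay under the older median. Its log2 fold change of -1.23 (adjusted p = 0.209) became -0.62 without rat 80, which is listed at 0. *Hoxc6* had 9 to 31 and 8 to 21 normalized counts (log2 fold change 0.17), *Hoxc8* had 17 to 30 and 10 to 30 (0.26), and *Hoxc10* had 12 to 18 and 8 to 29 (0.084). In RefSeq the spans of *Hoxc5* and *Hoxc6* overlap, and the counting of reads on shared or opposite strands is not given in the sources used here, so the split between them is uncertain. In the HOXD cluster, *Hoxd8* had 17 to 56 at 6 weeks and 18 to 44 at 10 weeks (log2 fold change -0.19), with -0.66 in the major set (DE, adjusted p = 0.0410) and 0.64 in the minor set. *Hoxd9* had 10 to 40 and 10 to 28 (0.31), and here too the major set gave -0.21 and the minor set 1.21. *Hoxd10* had 0 to 17 and 4 to 22 normalized counts (-0.71, and -0.96 to -0.089 over fits with one rat removed). *Hoxa5*, the single HOXA gene, had 3 to 24 and 12 to 23 (-0.64, adjusted p = 0.273).

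**Figure D2:**
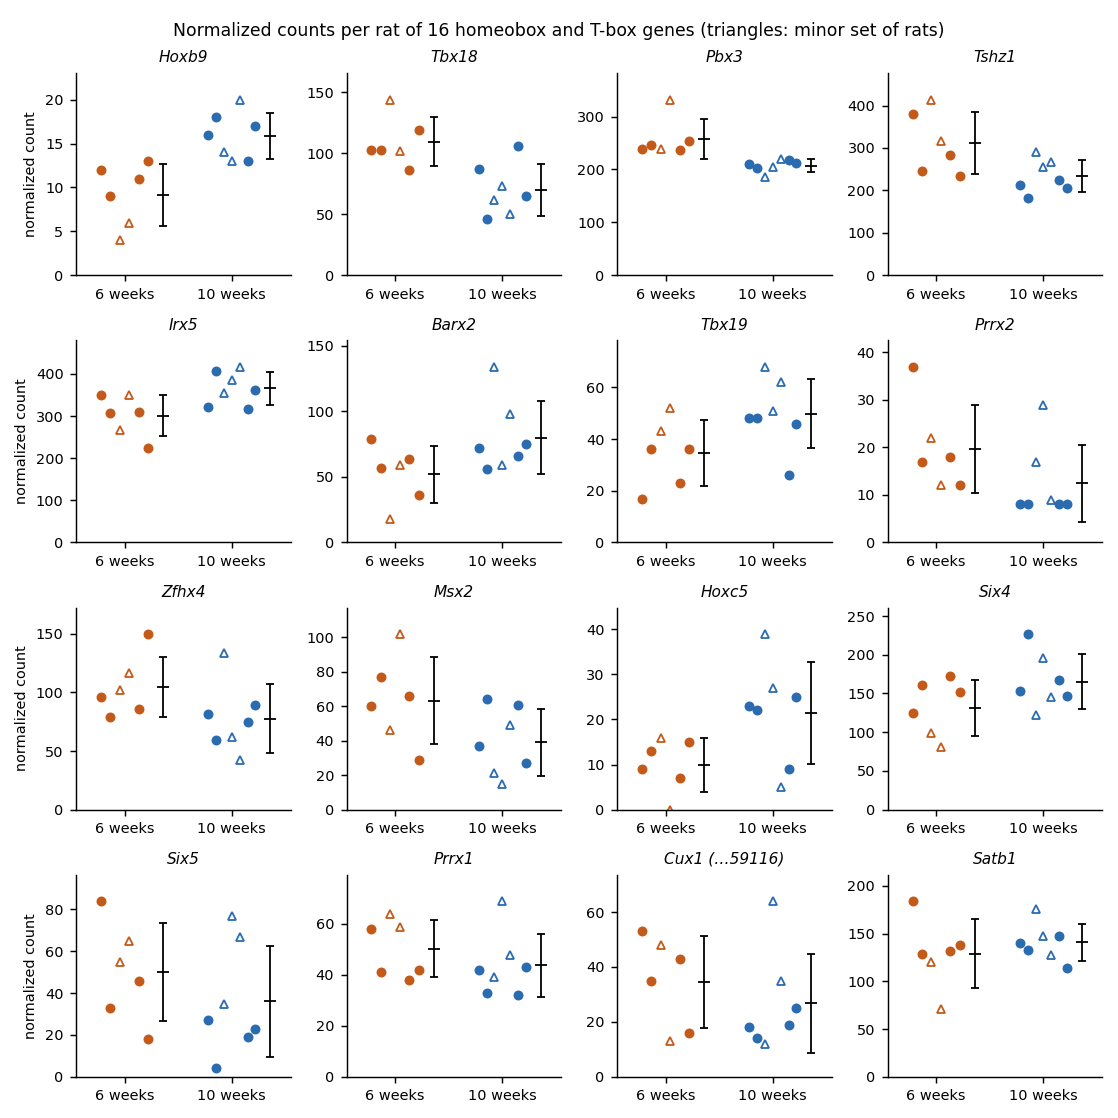
Normalized counts (y axis, linear from 0) of the 2 DE genes and of the genes with the lowest p in each family, at 6 weeks (orange, 6 rats) and 10 weeks (blue, 7 rats). Each point is a rat, open triangles are the minor set of rats, and the black mark beside each group is the mean with its SD. In *Pbx3* the ages do not overlap, whereas in the other panels they share values or overlap, as for *Hoxb9* at 13.

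PBX and MEIS proteins are the homeodomain cofactors of HOX proteins. *Pbx3* (ENSRNOG00000022162) had 236 to 332 normalized counts at 6 weeks (median 242.5) and 186 to 219 at 10 weeks (median 211), with no overlap between the ages. A log2 fold change of 0.30 (s.e. 0.10) had an adjusted p of 0.0578 by limma and so missed the threshold. With any one rat removed it lay between 0.23 and 0.32, and the adjusted p was 0.0634 or more. The highest value, 332, was that of rat 80, and the other 5 rats at 6 weeks had 236 to 253. *Pbx3* was DE with the first component as a term (adjusted p = 0.0372) and with sample quality weights (adjusted p = 0.0237). These settings also raised the share of all genes DE from 16.1% to 23.8% and 38.2%. The component was taken from the variation within the ages, so the estimate of 0.30 could not move, and passing there is no separate support. *Pbx2* had 201 to 333 and 184 to 254 normalized counts (log2 fold change 0.27, interval -0.040 to 0.57), with 0.47 in the major and -0.090 in the minor set. *Meis1*, *Meis2* and *Meis3* all had a log2 fold change above 0, at 0.24, 0.23 and 0.47, none of them past the threshold (adjusted p = 0.472, 0.313 and 0.230). For *Meis3*, with 35 to 81 normalized counts at 6 weeks and 21 to 55 at 10 weeks, the younger rats all exceeded the older median of 32.

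Iroquois genes, which pattern many organs and lie in 2 genomic clusters, are described here with their spread between rats. *Irx5* had 223 to 351 normalized counts at 6 weeks (median 309) and 317 to 417 at 10 weeks (median 361), and every younger rat was under the older median. Its log2 fold change of -0.29 (interval -0.56 to -0.022) did not pass after adjustment (adjusted p = 0.128). Its neighbour *Irx3* had 278 to 591 and 423 to 651 (-0.25, interval -0.63 to 0.13), and at 10 weeks its values ran from 593 to 651 in the minor set and from 423 to 493 in the major set. In the other cluster, on chromosome 1, *Irx4*, *Irx2* and *Irx1* follow each other in RefSeq with 0 other protein-coding genes starting between them. *Irx2* had 48 to 294 normalized counts at 6 weeks (median 205.5) and 74 to 436 at 10 weeks (median 98). Among the genes with a mean of at least 50 it had the largest SD within the ages (1.06 on the log2 scale), and its log2 fold change was 0.025 with an s.e. of 0.54. At 10 weeks the values fell into separate ranges, 320 to 436 in the 3 rats of the minor set and 74 to 98 in the 4 rats of the major set. At 6 weeks the 2 rats of the minor set had 251 and 294, and the other 4 had 48 to 257. *Irx1* was ordered alike, with 286 to 405 against 167 to 224 at 10 weeks and 271 and 303 against 95 to 302 at 6 weeks. *Irx4*, the third gene of the cluster, had 95 to 213 in the minor and 107 to 154 in the major set at 10 weeks, so that its ranges overlapped there. Since the sets were formed from the variation of all genes, these genes included, the contrast between them is a description. Its link to depth, cell content or RNA quality was not tested. Rats 75, 80, 78 and 81 of the minor set lacked 10, 15, 16 and 7 of the whole numbers from 1 to 30, while rat 83 lacked 0 and the major set lacked 0 to 8.

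To show the start sites of this cluster beside the values, the RefSeq windows are given 5′ to 3′ in the order *Irx4* (chr1:31868040-31868339, minus strand), *Irx2* (chr1:32494881-32495180, minus strand) and *Irx1* (chr1:33122872-33123171, plus strand) of GRCr8, with matches to the same 6 motifs in capitals.
Irx4: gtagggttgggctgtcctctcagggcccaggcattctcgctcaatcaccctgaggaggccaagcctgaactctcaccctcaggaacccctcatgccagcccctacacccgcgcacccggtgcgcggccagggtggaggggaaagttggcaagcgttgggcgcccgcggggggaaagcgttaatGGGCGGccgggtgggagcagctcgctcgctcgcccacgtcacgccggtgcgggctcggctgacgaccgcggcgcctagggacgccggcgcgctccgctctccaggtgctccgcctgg
Irx2: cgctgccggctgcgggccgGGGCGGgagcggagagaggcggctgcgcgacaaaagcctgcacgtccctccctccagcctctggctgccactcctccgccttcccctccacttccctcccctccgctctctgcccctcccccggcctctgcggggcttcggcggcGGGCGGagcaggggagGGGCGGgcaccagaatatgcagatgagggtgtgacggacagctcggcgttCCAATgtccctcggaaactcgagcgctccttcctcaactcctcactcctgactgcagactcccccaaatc
Irx1: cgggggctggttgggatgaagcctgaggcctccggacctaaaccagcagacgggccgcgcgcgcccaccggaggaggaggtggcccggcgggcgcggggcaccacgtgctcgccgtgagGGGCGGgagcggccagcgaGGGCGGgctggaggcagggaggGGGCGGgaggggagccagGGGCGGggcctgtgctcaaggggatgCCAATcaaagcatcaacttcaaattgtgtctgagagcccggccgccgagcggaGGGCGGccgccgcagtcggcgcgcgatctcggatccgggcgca
The G and C content was 71.0% for *Irx4*, 69.3% for *Irx2* and 74.0% for *Irx1*, with 31, 25 and 35 CpG sites, against 54.0% and 13 CpG sites in the *Tbx18* window. The *Irx1* window held 5 GC boxes and 1 CCAAT box, the *Irx2* window 3 and 1, and the *Irx4* window 1 GC box. None of the 3 windows held the homeodomain, MEIS, T-box or TATA letters. Promoter windows were found for 26 of 44 symbols (59.1%), too few for a comparison of the whole set with other promoters.

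**Figure D3:**
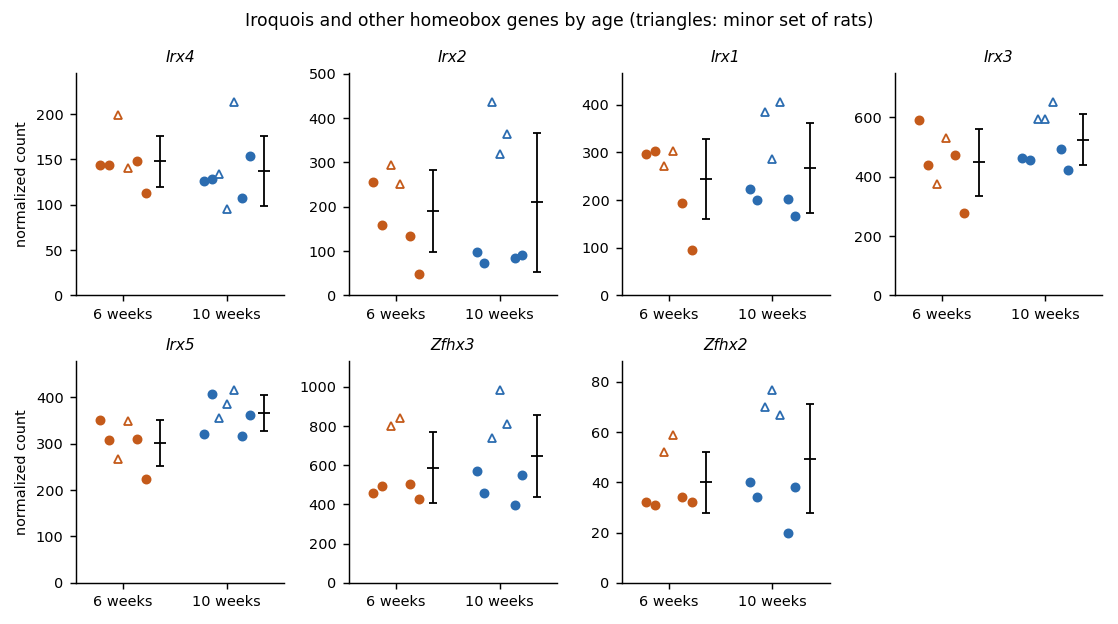
Normalized counts (y axis, linear from 0) of 5 Iroquois genes, *Zfhx3* and *Zfhx2* at 6 weeks (orange) and 10 weeks (blue), with 1 point per rat, open triangles for the minor set of rats, and the mean with its SD in black. Triangles stand above circles for *Zfhx3* and *Zfhx2* at both ages and for *Irx2*, *Irx1* and *Irx3* at 10 weeks.

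Among the zinc finger homeobox genes, *Zfhx3*, a large factor with many zinc fingers and homeodomains, had 737 to 987 normalized counts in the minor set of rats and 398 to 573 in the major set, while its log2 fold change between the ages was -0.12 (interval -0.63 to 0.39). *Zfhx2* had 52 to 77 and 20 to 40 in these sets and -0.22 between the ages (interval -0.87 to 0.43). They were the 2 genes of 45 (4.44%) whose sets did not overlap, beside 5.13% of all genes. *Zfhx4* had 79 to 150 at 6 weeks, all of them over the 10-week median of 75 (log2 fold change 0.48, adjusted p = 0.182). Among the teashirt genes, *Tshz1* had 233 to 414 (median 300.5) and 182 to 291 (median 224) normalized counts, with 6 of 6 younger rats above the older median and 3 above all older rats. A log2 fold change of 0.40 (s.e. 0.16, adjusted p = 0.109) missed the threshold. With the first component as a term the same estimate passed (adjusted p = 0.0313), in a setting where 23.8% of all genes did. *Tshz2* had 584 to 804 and 623 to 957 (-0.19, interval -0.46 to 0.072) and *Tshz3* 46 to 135 and 50 to 92 (0.21, interval -0.27 to 0.70).

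*Msx2*, which acts downstream of BMP signals in the mammary bud, had 29 to 102 normalized counts at 6 weeks (median 63) and 15 to 64 at 10 weeks (median 37). The older median was exceeded by 5 of the 6 younger rats, and the highest older rat by 3 of them (log2 fold change 0.74, s.e. 0.37, adjusted p = 0.183). Its partner *Msx1* had 55 to 92 and 40 to 97 (0.13, interval -0.30 to 0.57). *Barx2*, a BarH-like homeobox gene, pointed the other way with 18 to 79 at 6 weeks (median 58) and values from 56 up at 10 weeks (median 72; -0.68, s.e. 0.31, adjusted p = 0.155). For *Barx2* the major set gave -0.23, the minor set -1.46, and all rats but rat 75 gave -0.41. *Prrx1* and *Prrx2*, paired-type factors of mesenchyme, had 38 to 64 against 32 to 69 and 12 to 37 against 8 to 29 normalized counts. For *Prrx2* the younger rats all exceeded the older median of 8, with a log2 fold change of 0.68 (adjusted p = 0.180). Without rat 81 it was 0.90 and DE (adjusted p = 0.0384). The other 12 fits with one rat removed did not pass (adjusted p from 0.138 to 0.357), and without rat 70 the log2 fold change was 0.49. The major set alone gave 1.17 and a DE call (adjusted p = 0.0268), the minor set -0.021. *Prrx1* had a log2 fold change of 0.21 (interval -0.20 to 0.62). The fibroblast marker sum was higher at 6 weeks, and its part in the values of *Prrx1* and *Prrx2* was not tested.

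Sine oculis homeobox proteins act with EYA and DACH partners. *Six4* had 81 to 172 normalized counts at 6 weeks and 122 to 227 at 10 weeks (log2 fold change -0.35, adjusted p = 0.240), and *Six5* had 18 to 84 and 4 to 77 (0.73, interval -0.49 to 1.95). The main *Cux1* row had 493 to 664 and 502 to 672 normalized counts and a log2 fold change of -0.047 (interval -0.27 to 0.18), which library size scaling turned to just above 0. The other row, ENSRNOG00000059116, had 13 to 53 and 12 to 64 (0.40, interval -0.51 to 1.31), and reads could be split between the 2 rows. *Satb1*, an organizer of chromatin loops, had 71 to 184 normalized counts at 6 weeks and 114 to 176 at 10 weeks (-0.17, interval -0.56 to 0.23). No row carried a DLX, LHX, PITX or ALX symbol.

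Related genes were counted from lists written by hand. Beside their counts stand the 8.71% of all genes DE and higher at 6 weeks and the 7.39% at 10 weeks. No list was tested against these shares. Of 94 further homeobox genes, 31 were in the table, with 2 DE and higher at 6 weeks and 4 DE and higher at 10 weeks (median log2 fold change -0.086). The low share of DE genes among the 45 is thus stated for that set alone, not for homeobox genes at large. *Cers5*, a ceramide synthase with a homeobox-like domain (0.58, adjusted p = 0.00804), and the LIM homeobox gene *Lmx1a* (1.12, adjusted p = 0.0425) were higher at 6 weeks. *Gsc*, the organizer gene goosecoid (-1.50, adjusted p = 0.0397), the pituitary factor *Pou1f1* (-1.27, adjusted p = 0.0195), and the zinc finger homeobox genes *Adnp2* (-0.43, adjusted p = 0.0148) and *Adnp* (-0.40, adjusted p = 0.0476) were higher at 10 weeks. *Mga* was the single gene found of 5 further T-box names, with 2403 to 4437 and 3294 to 5585 normalized counts (-0.26, adjusted p = 0.263). Among 17 cofactor genes found of 20, 0 were DE and higher at 6 weeks and 1 was DE and higher at 10 weeks. This was *Pknox1*, a TALE partner of PBX proteins, with 338 to 431 normalized counts at 6 weeks and 492 to 581 at 10 weeks and no overlap (log2 fold change -0.46, s.e. 0.091, adjusted p = 0.00561). *Tgif1* (-0.35, adjusted p = 0.0524) and *Tgif2* (-0.36, adjusted p = 0.0580) fell just short of the threshold, and *Eya2* had -0.57 (adjusted p = 0.107). *Pknox1*, *Pknox2*, *Tgif1* and *Tgif2* are homeobox genes too, but were counted with the cofactors and not among the 31.

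Of 34 signals of the mammary placode and bud, 27 were in the table, with 2 DE and higher at 6 weeks, 3 DE and higher at 10 weeks and a median log2 fold change of 0.12. *Sostdc1*, an inhibitor of Wnt and BMP signals, had 48 to 94 normalized counts at 6 weeks and 21 to 47 at 10 weeks, without overlap (log2 fold change 1.12, s.e. 0.20, adjusted p = 0.00285). *Gli3*, the Hedgehog effector, also did not overlap, with 321 to 439 and 251 to 309 (0.40, adjusted p = 0.0182). Higher at 10 weeks were the Wnt antagonist *Dkk4* (-0.50, adjusted p = 0.0206), the ectodysplasin gene *Eda* (-0.74, adjusted p = 0.0422) and *Trps1* (-0.42, adjusted p = 0.0206). *Gata3* (-0.26, adjusted p = 0.351), *Bmp4* (0.16, adjusted p = 0.580) and *Fgf10* (0.45, adjusted p = 0.470) did not pass.

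**Figure D4:**
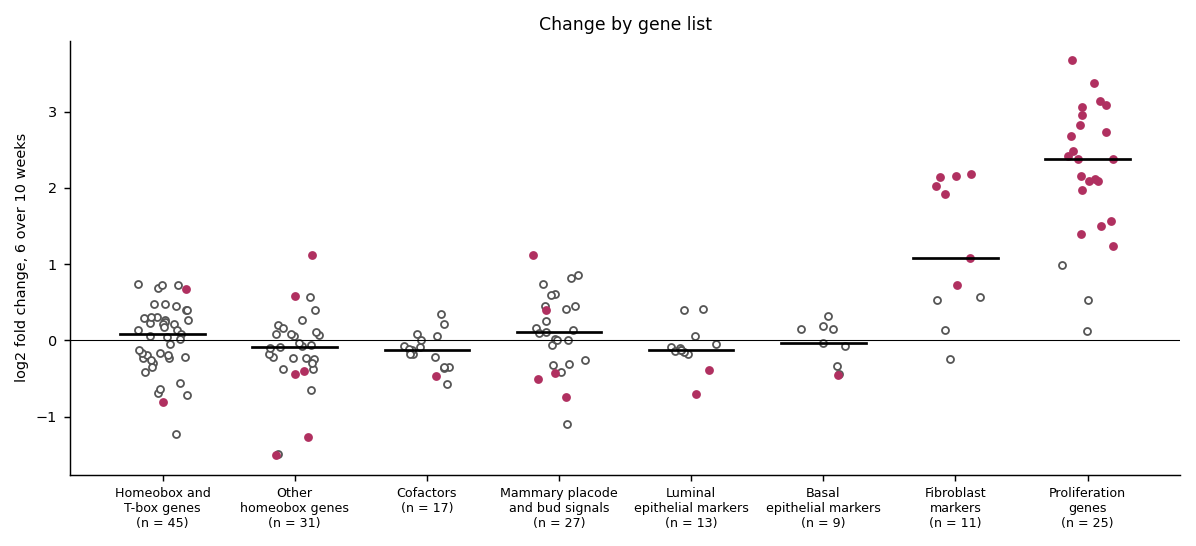
Log2 fold change (6 weeks over 10 weeks, y axis) of each gene in the 45 homeobox and T-box genes and in 7 lists, with filled points for adjusted p under 0.05 from limma and a bar at the median of each list. The set of 45 has a median of 0.084 with 2 filled points, while the proliferation genes have a median of 2.37 with 22 of 25 filled.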

How the data were processed

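RNA-seq was done on mammary epithelial cells of 13 rats. With RSEM 1.2.22 the authors estimated a count for each gene, which they deposited rounded and, as gaps among the whole numbers show, scaled per library, so these values were treated as a score and no count model was applied. The kind of scaling and the annotation are not given in the sources used here, and the submitters' processing notes name rn5. Columns of the authors' own comparison (fold changes, p-values and calls) and of gene location were not used. Samples were grouped by the age in their titles. The ages were compared with limma 3.58.1 in R 4.3.3 on log2(value + 1) over the 14790 genes whose mean reached 1, two-sided and without covariates, with Benjamini-Hochberg adjustment and a threshold of 0.05. All 45 homeobox and T-box genes met the minimum and enter the counts, and 2 of them are not reported here one by one. The labels do not say whether libraries differ in batch, and p-values measure the spread between rats. The depth before scaling is not stated, so no counting interval is given. Genes were named in full if DE, or if among the 2 lowest p-values of their family with a mean of at least 10. Of the related lists, DE genes were named, at most 4 in each direction, and any further gene was picked knowing its values. The set of genes and the lists were chosen with earlier results of these data known. Markers of luminal, basal, fibroblast, adipocyte, endothelial, muscle, macrophage, lymphocyte, mast and nerve cells and proliferation genes were summed per rat. Alternatives were 3 other scalings, 0.1 as pseudocount, at least 10 counts in each rat, no filter, limma-trend, sample quality weights, the first component of the residuals as a term, each set of rats alone, and each rat left out. The fit was also run on simulated data, with counts drawn for each gene on its own. That simulation lacked the variation shared between genes in these rats, so it is no check of the calls made here. Promoters are from RefSeq (GRCr8), matched by symbol. Tables and figures were made in Python 3.11.15.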

Additional observations from a re-analysis of the deposited data

Results flagged for a closer look

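In *Pbx3*, rat 80 at 6 weeks stood apart with 332 normalized counts, where the other 5 rats of that age had 236 to 253. In *Prrx2*, rat 81 at 10 weeks stood apart with 29 normalized counts, where the other 6 rats had 8 to 17. Both came from a search for a lone high or low rat in 32 groups of rats (16 genes at each age), in which chance gives about 1 in 20.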

How the results depend on the processing

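The number of homeobox and T-box genes DE moved between settings. For higher at 6 weeks (1 gene with the settings of the report) it was 7 with sample quality weights, 3 with the first component as a term, 2 in the major set and 0 in the minor set. For higher at 10 weeks (1 gene) it was 2 with sample quality weights, and 0 with a minimum of 10 in every rat, where *Hoxb9* was not tested, with limma-trend and in the minor set. An unadjusted p under 0.05 was found for 6 genes with limma-trend and with the minimum of 10, and for 9 genes in the minor set. The share of all genes at that p was not taken in these settings, so these counts cannot be read as a result. Leaving out each rat gave 0 to 2 and 0 to 1 genes. The median log2 fold change of the genes ran from 0.033 to 0.17 in those fits and from 0.0081 to 0.13 in the other 11 settings. Signs were followed here for the 16 genes named in full. Among them the sign turned for *Satb1* with sample quality weights (0.0014) and in the major set (0.12). It also turned for *Prrx2* (-0.021) and the *Cux1* row ENSRNOG00000059116 (-0.25) within the minor set. Further genes had opposite signs in the 2 sets of rats, such as *Tbx15*, *Pbx2*, *Hoxd8* and *Hoxd9*. For *Tbx15* and *Hoxd9* in the major set and *Pbx2* in the minor set, the estimate was smaller than its s.e. The cause of the opposite signs was not tested. Of all genes, 16.1% were DE with the settings of the report, 9.54% to 18.1% with a rat left out, 38.2% with sample quality weights, 23.8% with the first component as a term, 23.5% in the major set and 0 in the minor set. No paired analysis was possible because the rats of the 2 ages carry different numbers.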
